A study of Homo sapiens with 2 samples.

Results

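The mature miRNAs described here are both arms of the miR-21 hairpin and both arms of the miR-22 hairpin. They were picked by name from the deposited RPKM tables because these hairpins are abundant there, through miR-21-5p, miR-22-3p and miR-21-3p, while miR-22-5p is scarce. All 4 names, miR-21-5p, miR-21-3p, miR-22-3p and miR-22-5p, were found among the 2038 mature miRNA names of the tables. RPKM, reads per kilobase of transcript and per 1000000 reads, was calculated by the authors. The values that chose the members are their levels in these libraries, so the levels and the differences between libraries are given as a description, without a test.

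Small RNA was sequenced from FaDu, a squamous carcinoma line of the hypopharynx that the labels spell FadU. The sphere library came from FadU cells expanded in tumor sphere medium, a DMEM-F12 base that held EGF and recombinant bFGF (each at 10 ng/ml), N2 Plus Supplement and penicillin-streptomycine at 1%, and is labelled as sphere-derived cancer stem cells. The parental library came from FadU cells in RPMI-1640 with 10% FBS and 1% penicillin-streptomycine. Both are the same line, and each group is 1 library, so growth form, medium and serum cannot be told apart and no value has a replicate check. The design text gives the aim as finding key miRNAs of cancer spheres.

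A miRNA hairpin is cut by Drosha and Dicer into a short duplex, of which one arm is usually kept by an Argonaute protein while the other is degraded. The kept arm recognises messenger RNAs mainly through its seed, the bases near its 5′ end. miR-21-5p is the kept arm of miR-21, a miRNA raised in most carcinomas, which represses tumour suppressor messages such as PDCD4. miR-22-3p is the kept arm of miR-22, which has been described both as a tumour suppressor and as an oncogene, depending on the tissue.

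The mature sequences are shown because the seed, bases 2 to 8 from the 5′ end and in capitals, defines which targets a miRNA recognises. They are RefSeq sequences on GRCh38.p14, whereas the submitters' processing notes name hg19, and the deposited tables hold names without coordinates. RefSeq sequences were found for 3 of the 4 members. miR-590-5p is included as the other name with the miR-21-5p seed.
miR-21-5p: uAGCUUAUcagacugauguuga
miR-590-5p: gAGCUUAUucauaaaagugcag
miR-22-3p: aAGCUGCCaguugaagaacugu
miR-22-5p: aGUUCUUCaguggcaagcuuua
miR-21-5p lies at chr17:59841273-59841294 on the plus strand. miR-590-5p lies at chr7:74191213-74191234 on the plus strand. miR-22-3p and miR-22-5p lie on the minus strand, at chr17:1713914-1713935 and chr17:1713952-1713973.

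No other RefSeq mature sequence has the seed of miR-22-3p or that of miR-22-5p. miR-590-5p, the partner of miR-21-5p by seed, was listed at 0 RPKM in the sphere library, against 2.92 RPKM in the parental library, which is less than the value of 1 read. A value of 0 in the sphere library allows up to 24.2 RPKM, or 3 reads. miR-21-5p therefore supplied nearly all of the signal with its seed in both libraries. The seeds of the kept arms share their first bases, AGCU at bases 2 to 5. Among the 1714 names in the tables with a RefSeq mature sequence, 4 have AGCU there, or 0.233%. The remaining names are miR-590-5p and miR-4453, and miR-4453 was listed at 0 in both libraries. Of 217 names with a sequence that averaged at least 10 parts in 1000000 of the miRNA total, called measured here, only miR-21-5p and miR-22-3p have it. The match is of letters and says nothing of shared targets.

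By the mature sequences found, each hairpin has 1 locus in RefSeq, both on chromosome 17. No sequence of the miR-22 hairpin itself was found in the RefSeq set used, so only that of miR-21 is shown. The miR-21 hairpin lies at chr17:59841266-59841337, where the part in capitals is miR-21-5p, bases 8 to 29 of the 72.
MIR21 hairpin: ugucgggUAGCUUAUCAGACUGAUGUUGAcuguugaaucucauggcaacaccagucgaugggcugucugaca
In the GENCODE annotation of GRCh38, MIR21 starts 174 bases past the end of the last protein-coding transcript of VMP1, a gene of autophagy, and lies within an exon of 1 of 17 VMP1 transcripts, which is classed as a retained intron. MIR22 lies within an exon of all 19 annotated transcripts of MIR22HG, its noncoding host gene. The longest unbroken stretch of Watson-Crick pairing between the arms of miR-22 is 9 bases, bases 1 to 9 of miR-22-5p with bases 12 to 20 of miR-22-3p. Pairing outside that stretch was not counted. All 3 mature members with a sequence are 22 nt long, with a GC content of 36.4% for miR-21-5p, 45.5% for miR-22-3p and 40.9% for miR-22-5p. The median over measured miRNAs was 47.8%.

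The scale matters for every comparison between the libraries. RPKM summed to 5509071 over all names in the sphere library, against 26530004 in the parental library. By the estimate of reads given next, miRNAs were 12.1% of the reads that the RPKM refers to in the sphere library and 58.4% in the parental library. Which other reads those are is not stated, so a deposited difference cannot be told apart from a difference in that share. Levels are therefore given as deposited and as a share of the miRNA total, with each column rescaled to sum to 1000000 ("rescaled RPKM"). The commonest low value, taken as 1 read on 22 nt, puts about 682359 reads on miRNAs in the sphere library and 4542489 in the parental library. These are estimates, since the tables hold no counts. The 95% intervals below are exact (Clopper-Pearson) intervals on the estimated reads, which cover counting error only and not the variation between cultures. Names whose mean over the libraries reached 10 rescaled RPKM are called measured, and there were 269 of them.

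miR-21-5p was the most abundant miRNA of the sphere library and the second of the parental library. It held 25.9% of the miRNA total in the sphere library (95% interval 25.8% to 26.0%), against 18.8% in the parental library (18.76% to 18.83%). In bulk RNA, fewer cells with a miRNA and less of it per cell cannot be told apart. As deposited, it had 1424950 RPKM in the sphere library, against 4987300 RPKM in the parental library. The share was thus higher in the sphere library, while the deposited value was lower there.

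The other arm of this hairpin, miR-21-3p, is usually the degraded strand. It held 0.886% of the miRNA total in the sphere library (0.864% to 0.908%) and 1.66% in the parental library (1.64% to 1.67%). Its deposited values were 48806.6 RPKM in the sphere library and 439426 RPKM in the parental library. miR-21-3p ranked 23 among the 672 names above 0 in the sphere library, against 11 among 903 in the parental library. It was set beside the less abundant arms of 84 hairpins and had the highest level of these in both libraries. The 84 are those whose arms share a name up to the ending -5p or -3p and whose summed arms averaged 100 rescaled RPKM or more. Hairpins with a locus number in the name of an arm, such as those of let-7f and miR-92a, are not among them.

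miR-22-3p held 3.26% of the miRNA total in the sphere library (3.22% to 3.31%) and 2.09% in the parental library (2.07% to 2.10%). It had 179828 RPKM in the sphere library, against 553669 RPKM in the parental library. Its rank was 5 in the sphere library and 10 in the parental library, so its share was higher in spheres, and its deposited value was lower, as for miR-21-5p.

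miR-22-5p, the other arm of that hairpin, was scarce. It had 33.0 rescaled RPKM in the sphere library, against 9.55 in the parental library, on about 22.5 and 43.4 estimated reads in the sphere and parental libraries. As deposited, these were 182 RPKM in the sphere library and 253 RPKM in the parental library. Its parental level lies under 10 rescaled RPKM, so miR-22-5p counted as measured through the sphere library alone. It could pass only by being higher there.

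**Figure D1:**
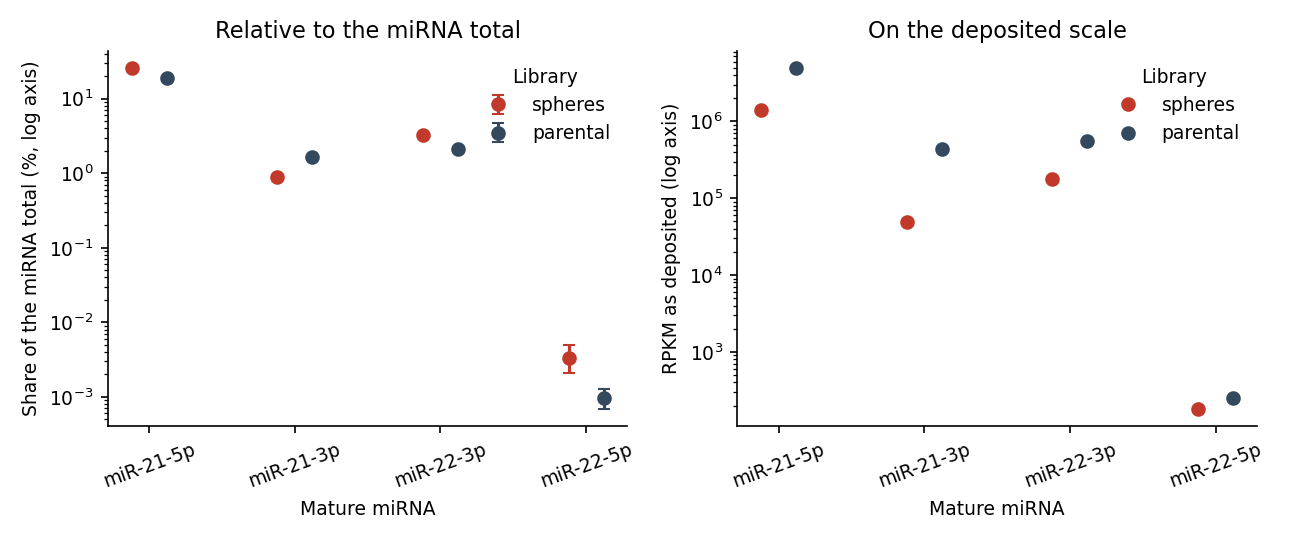
Levels of the 4 arms in the sphere library (red) and the parental library (grey), as a percentage of the miRNA total (left, log axis, bars are 95% counting intervals, often smaller than the point) and in RPKM as deposited (right, log axis). On the left miR-21-5p, miR-22-3p and miR-22-5p are higher in spheres and miR-21-3p is lower, while on the right all 4 are lower in spheres.

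Together the 4 arms took 30.0% of the miRNA total in the sphere library (29.9% to 30.1%), against 22.5% in the parental library (22.5% to 22.6%). On the deposited scale the members summed to 1653766 RPKM in the sphere library and 5980648 RPKM in the parental library. The total over all names was 4.82 times lower in the sphere library, and miR-21-5p made up 16.9% of that difference in RPKM. miR-21-3p made up 1.86% of it and miR-22-3p 1.78%.

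The log2 fold, of (rescaled RPKM + 0.5) in spheres over parental, was 0.46 for miR-21-5p, a 1.38-fold higher share (1.37 to 1.38). For miR-22-3p it was 0.65, or 1.56-fold higher (1.54 to 1.59). miR-22-5p had the highest log2 fold of the 4, 1.74, or 3.45-fold higher, with a wide interval of 1.98 to 5.87 on its few reads. miR-21-3p had a log2 fold of -0.90 and was 1.87-fold lower (1.82 to 1.92). miR-22-5p alone lay beyond 2-fold, though it passed the filter only through its sphere level, and its interval reaches just under 2. Of the 269 measured names, 62 were at least 2-fold higher in spheres, or 23.0%, and 51 were at least 2-fold lower, or 19.0%. The median log2 fold over the 269 names was 0.02. Against these names, 93 had a higher log2 fold than miR-21-5p, 78 than miR-22-3p and 37 than miR-22-5p, while 56 had a lower one than miR-21-3p.

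On the deposited scale all 4 log2 folds were negative. miR-21-5p was at -1.81, or 3.50 times lower in spheres, miR-22-3p at -1.62, or 3.08 times lower, and miR-21-3p at -3.17. miR-22-5p was at -0.48, with an interval of the fold from 0.411 to 1.22 that includes 1. Thus 3 of the 4 were at least 2-fold lower, against 79.6% of the measured names, a share near that background. None of the 4 was at least 2-fold higher, against 6.32% of the measured names. The median log2 fold of the measured names on this scale was -2.25, since the scale moves nearly all log2 folds by about the same amount.

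**Figure D2:**
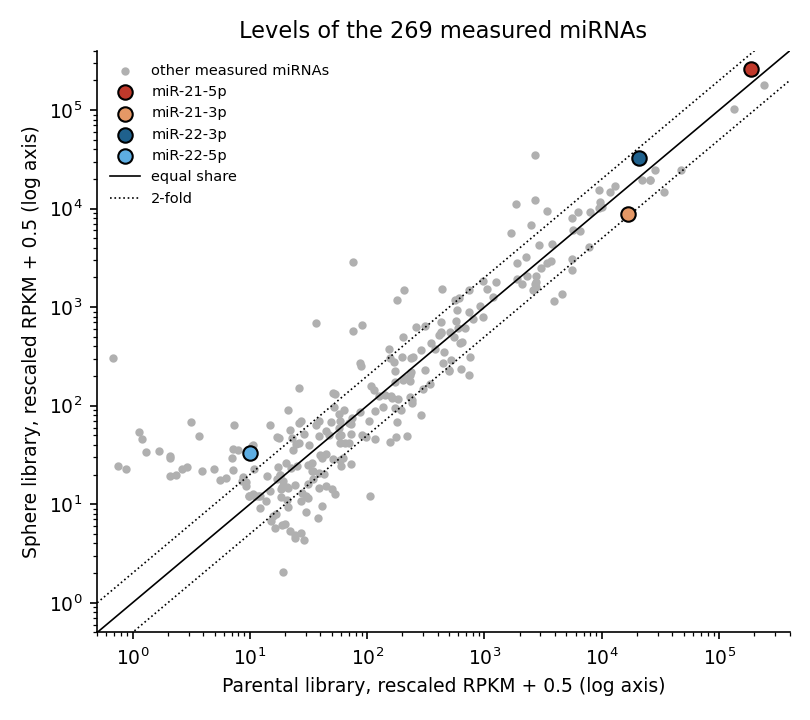
Level of each of the 269 measured miRNAs in the sphere library against the parental library, in rescaled RPKM plus 0.5 (log axes), with the 4 arms in colour, a solid line at equal shares and dotted lines at 2-fold. miR-21-5p and miR-22-3p lie slightly above the line of equal shares, miR-21-3p below it near the 2-fold line, and miR-22-5p above the 2-fold line at a low level, where the points scatter more widely.

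The order of the most abundant miRNAs differed between the libraries. In the sphere library miR-21-5p was followed by let-7a-5p at 17.9% of the miRNA total and let-7f-5p at 10.3%. Both belong to the let-7 family, which rises as cells differentiate. In the parental library let-7a-5p came first at 24.3%, followed by miR-21-5p, with let-7f-5p next at 13.4%. miR-21-5p had 1.44 times the level of let-7a-5p in the sphere library (1.43 to 1.45), against 0.773 times in the parental library (0.771 to 0.776). This ratio is taken within a library and does not depend on how the libraries are scaled.

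miR-22-3p stood between miR-203a, at 3.51%, and miR-92a-3p, at 2.47%, in the sphere library. miR-203a is a miRNA of stratified epithelium, and miR-92a-3p belongs to the MYC-driven cluster of miR-17. In the parental library miR-22-3p stood between the epithelial miR-205-5p, at 2.19%, and miR-21-3p. The counting interval of miR-22-3p overlapped that of none of the 3 names above and 3 names below it in either library, nor did that of miR-21-5p overlap those of its neighbours. With 1 library each, whether these steps exceed the spread between cultures was not tested. miR-21-5p had 7.92 times the level of miR-22-3p in the sphere library (7.81 to 8.04) and 9.01 times in the parental library (8.95 to 9.07). miR-21-3p had 0.271 times the level of miR-22-3p in the sphere library (0.264 to 0.279), against 0.794 times in the parental library (0.786 to 0.801).

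The arm ratio of each hairpin differed between the libraries, and in opposite directions. miR-21-5p had 29.2 times the level of miR-21-3p in the sphere library (28.5 to 30.0), against 11.3 times in the parental library (11.3 to 11.4). The less abundant arm thus made up 3.31% of the miR-21 hairpin in the sphere library (3.23% to 3.39%) and 8.10% in the parental library (8.04% to 8.15%). miR-22-3p had 990 times the level of miR-22-5p in the sphere library (657 to 1571), against 2185 times in the parental library (1624 to 3014). miR-22-5p made up 0.101% of its hairpin in the sphere library (0.0636% to 0.152%) and 0.0458% in the parental library (0.0332% to 0.0615%). The miR-21 hairpin was more unequal between its arms in spheres than in parental cells, and the miR-22 hairpin less so. An arm ratio within a library is the same under every scaling, apart from the value of 0.5 added on the log2 scale.

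On the log2 scale the arm ratio of miR-21 was 4.87 in the sphere library and 3.50 in the parental library, a difference of 1.36 (1.32 to 1.40, a normal approximation on estimated reads). That of miR-22 was 9.93 in the sphere library and 11.02 in the parental library, a difference of -1.09 (-1.83 to -0.36). These were read against the same 84 hairpins. Of these, 31 had an arm ratio at least 2-fold higher in spheres, or 36.9%, and 8 at least 2-fold lower, or 9.52%. Among the 82 hairpins other than miR-21 and miR-22 the difference was above 0 in 56 and below 0 in 26, with a median of 0.57 and quartiles of -0.35 and 1.28. A difference further above 0 than that of miR-21 was seen in 18 of these, and one further below 0 than that of miR-22 in 6. The direction of miR-21 is therefore the commoner one among hairpins, and that of miR-22 the rarer one.

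Many less abundant arms rest on few reads. In the 30 hairpins whose less abundant arm had at least 10 estimated reads in both libraries, a restriction added after seeing the data, 26.7% had an arm ratio at least 2-fold higher in spheres and 10.0% at least 2-fold lower. miR-21 and miR-22 are both among the 30. One read is 1.47 rescaled RPKM in spheres and 0.220 in parental cells, so the minimum asks for a higher level in spheres. At its parental level of 9.55 rescaled RPKM, miR-22-5p would have had under 10 reads in the sphere library. miR-22 thus entered the set only through the higher sphere level of miR-22-5p, which also lowers its difference, so its place in this set is a description only. Of the other 28 hairpins, the difference was above 0 in 23 and below 0 in 5, with a median of 0.54. In this set 5 hairpins had a difference above that of miR-21 and 2 had one below that of miR-22.

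**Figure D3:**
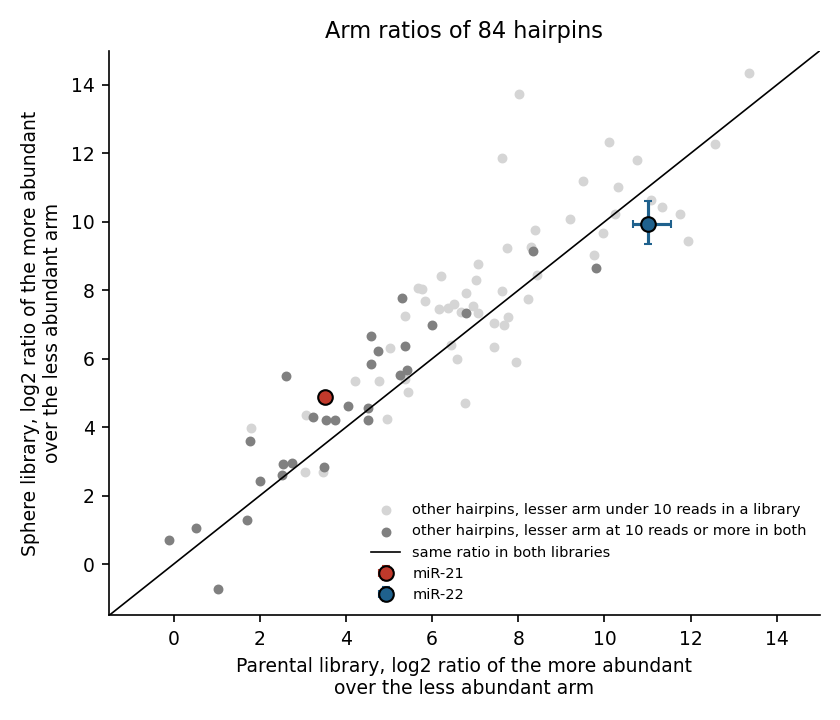
Log2 ratio of the more abundant over the less abundant arm in the sphere library against the parental library for 84 hairpins, with miR-21 in red and miR-22 in blue (bars are 95% counting intervals) and a line at equal ratios. Hairpins with a less abundant arm under 10 estimated reads in a library are in light grey. miR-21 lies above the line and miR-22, far out along it, lies below.

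The hairpins differ widely in how unequal their arms are. In the sphere library the median log2 arm ratio of the other 82 hairpins was 7.13, and 60 had a higher ratio than miR-21 while 13 had a higher one than miR-22. In the parental library the median was 6.28, with 66 above miR-21 and 6 above miR-22. Over all these hairpins miR-21 was thus among the less unequal, and miR-22 among the most unequal. Many of the higher ratios rest on few reads of the less abundant arm. Among the other 28 hairpins with at least 10 such reads in both libraries, 12 had a higher ratio than miR-21 in spheres and 16 in parental cells. Their median log2 arm ratio was 4.43 in spheres and 3.89 in parental cells, so miR-21 lay near the middle of them. None of the 28 had a higher ratio than miR-22 in either library. The minimum of 10 reads, however, takes out hairpins with a very scarce less abundant arm, and so limits how high a ratio can be. The 13 hairpins above miR-22 in spheres and the 6 in parental cells all fell outside this set, so its count does not rank miR-22. Over all 84 hairpins, the more abundant arm is the 5p arm in 50, as in miR-21, and the 3p arm in 34, as in miR-22. It starts with U in 45 of the 75 hairpins for which RefSeq gives its sequence (60%), as in miR-21-5p, and with A in 18 (24%), as in miR-22-3p.

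Of these 84, the 5 others with the highest mean signal over both libraries fell on both sides. let-7a-5p had 573 times the level of let-7a-3p in the sphere library (501 to 659), against 326 times in the parental library (315 to 337). The log2 arm ratio of let-7d was 0.54 higher in spheres (0.21 to 0.86) and that of miR-205 1.70 higher (0.45 to 2.95). let-7i had a difference of -1.53 (-2.63 to -0.44). let-7e had -0.44, with an interval of -1.51 to 0.64 that includes 0. Each of let-7i, let-7e and miR-205 had under 10 estimated reads of the less abundant arm in at least 1 library. Compared with these, miR-21 has by far the largest share in its less abundant arm, since let-7d-3p made up 0.617% of its hairpin in the sphere library and 0.894% in the parental library.

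Summed over its arms, the miR-21 hairpin had 26.8% of the miRNA total in the sphere library (26.6% to 26.9%), against 20.5% in the parental library (20.4% to 20.5%), a log2 fold of 0.39. The miR-22 hairpin had 3.27% in the sphere library (3.23% to 3.31%), against 2.09% in the parental library (2.07% to 2.10%), a log2 fold of 0.65. The sums follow the more abundant arms, and the log2 fold of miR-21-3p has the opposite sign to that of its hairpin.

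The miRNAs most like each member over the 2 libraries were found by Euclidean distance in log2(rescaled RPKM + 0.5). For miR-21-5p they were let-7a-5p (distance 0.65), let-7f-5p (1.42) and miR-92a-3p (3.92), all with a negative log2 fold, so that their likeness lies in level. For miR-21-3p they were miR-182-5p (0.77), miR-191-5p (0.83) and miR-26a-5p (0.89), with log2 folds of 0.06, 0.11 and 0.30 against its -0.90. For miR-22-3p they were let-7c (0.60), miR-205-5p (0.75) and let-7e-5p (0.79), with log2 folds of -0.20, -0.17 and -0.38 against its 0.65. For miR-21-3p and miR-22-3p, too, the likeness lies in level. For miR-22-5p they were miR-31-3p (0.21), miR-4454 (0.28) and miR-3651 (0.35), with log2 folds of 1.89, 1.92 and 2.15. Distances this small over 2 libraries leave little room for other log2 folds. In parental cells miR-31-3p had 9.93 rescaled RPKM and miR-3651 had 7.47, so both, like miR-22-5p, counted as measured through the sphere library alone. miR-31-3p is, like miR-22-5p, the scarce arm of an abundant hairpin.

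Of 11 miRNAs often high in carcinoma, all were measured, 2 were at least 2-fold higher in spheres and none lower, with a median log2 fold of 0.29, or 0.18 without miR-21-5p. The background shares were 23.0% higher and 19.0% lower. The higher ones were miR-210, a target of HIF1A, at 2.91 and miR-221-3p at 1.47. miR-221-3p had 9421 rescaled RPKM in spheres and 3403 in parental cells. The values of the others were 0.73 for miR-31-5p, 0.46 for miR-21-5p, 0.37 for miR-155-5p, 0.29 for miR-183-5p, 0.06 for miR-182-5p, -0.13 for miR-17-5p, -0.30 for miR-222-3p, -0.63 for miR-93-5p and -0.95 for miR-92a-3p. Within this list miR-21-5p was thus the fourth highest by log2 fold, though by far the most abundant. As deposited, 9 of the 11 were at least 2-fold lower in spheres and none was higher, with a median of -1.97, where 79.6% of the measured names were lower.

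miR-21 is abundant in many cell types, so markers of others were looked at beside it. The squamous epithelial markers miR-203a, miR-205-5p, miR-31-5p, miR-200c-3p and miR-141-3p were all measured and summed to 8.33% of the miRNA total in spheres and 3.73% in parental cells. The largest change in this sum was that of miR-203a, with 35056 rescaled RPKM in spheres and 2698 in parental cells. At least 2-fold higher in spheres were 2 of the 5, miR-203a at a log2 fold of 3.70 and miR-141-3p at 2.18. None was at least 2-fold lower, and miR-205-5p was at -0.17. Over all measured names, 23.0% were at least 2-fold higher and 19.0% lower. As deposited, 1 of the 5 was at least 2-fold higher and 3 were lower, with a median log2 fold of -1.53. On that scale 6.32% of the measured names were higher and 79.6% lower. Of 6 mesenchymal and fibroblast markers 2 were measured, and the list summed to 2569 rescaled RPKM in spheres and 3053 in parental cells, nearly all of it miR-10b-5p, at a log2 fold of -0.28. The other measured one, miR-143-3p, had 66.3 rescaled RPKM in spheres and 25.9 in parental cells, a log2 fold of 1.34, and miR-199a-3p, below the measured level, had 7.08 in spheres and 2.02 in parental cells. miR-145-5p and miR-214-3p were listed at 0 in parental cells and at less than 1 estimated read in spheres. miR-199a-5p had 1.40 in spheres and 1.05 in parental cells. Of 6 blood markers only miR-486-5p was measured, at 207 rescaled RPKM in spheres and 741 in parental cells, and the list summed to 228 in spheres and 742 in parental cells. miR-150-5p had 13.2 in spheres, on 9.0 estimated reads, and was listed at 0 in parental cells. miR-451a had 5.86 in spheres and 0.44 in parental cells, on 4.0 and 2.0 estimated reads. miR-142-3p had 2.80 in spheres, on 1.9 estimated reads, and was listed at 0 in parental cells. miR-223-3p was listed at 0 in spheres and at less than 1 estimated read in parental cells, and miR-144-3p was listed at 0 in both libraries. The endothelial miR-126-5p had 376 rescaled RPKM in spheres and 154 in parental cells, and miR-126-3p 68.9 in spheres and 38.3 in parental cells. The liver miR-122-5p was listed at 0 in both libraries, and of the muscle markers miR-206 was too, while miR-1 and miR-133a together had 17.0 rescaled RPKM in spheres and 1.98 in parental cells. Of these, miR-133a rested on 10.1 estimated reads in spheres and 9.0 in parental cells. miR-1 rested on 1.5 in spheres and was listed at 0 in parental cells. The part of these differences in the levels of miR-21 and miR-22 was not tested.

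The direction of the differences depends on the scaling for 3 of the 4 arms. miR-21-5p, miR-22-3p and miR-22-5p were higher in spheres under all 6 scalings to miRNAs and lower on the deposited scale, while miR-21-3p was lower under all 7. The log2 fold of miR-21-3p lay beyond 2-fold with the trimmed mean of M values (-1.10) and the median of ratios (-1.11), and not with the miRNA total (-0.90).

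**Figure D4:**
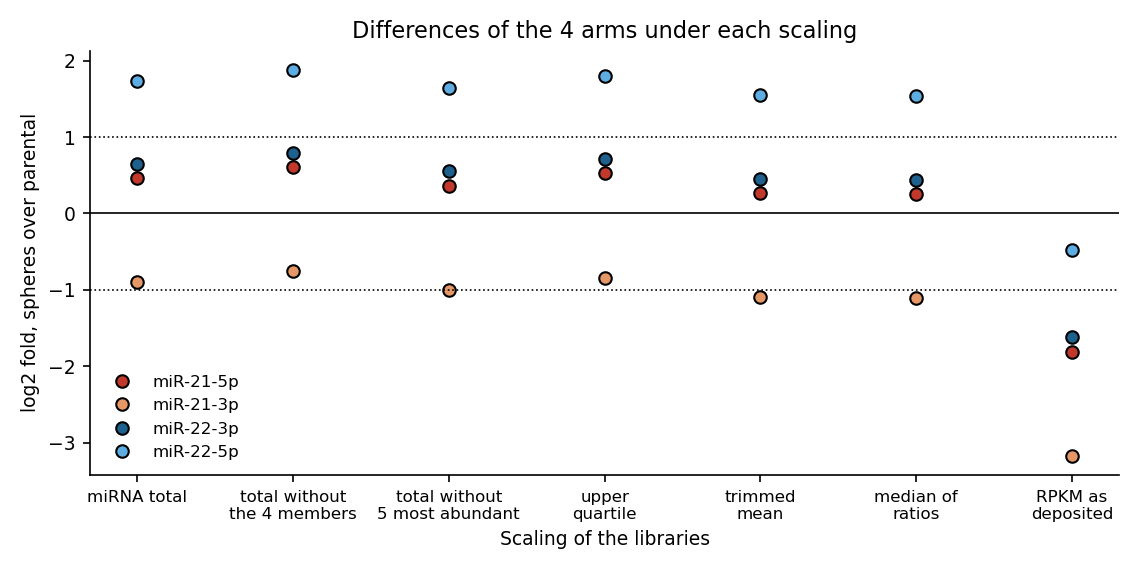
Log2 fold in spheres over parental cells of the 4 arms under 7 scalings, with dotted lines at 2-fold. The arms keep their order under each scaling, and with RPKM as deposited all 4 lie below 0.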

How the data were processed

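The deposited files give RPKM per mature miRNA, as computed by the authors, per the header of each file. Libraries were made from 1 µg of total RNA with a TruSeq small RNA kit, per the labels' protocols, and the submitters' processing notes name hg19. Not given in the sources used here are the aligner, the counting tool, the annotation release and how reads matching several miRNAs were treated. The value of 1 read was 8.07 RPKM in the sphere library and 5.84 RPKM in the parental library, taking the commonest value as 1 read on 22 nt. That reading is an estimate, and other values include fractions of reads.

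Columns were rescaled to 1000000, log2 folds used a pseudocount of 0.5, which understates changes of low miRNAs, and a mean of at least 10 rescaled RPKM was required. Higher or lower means at least 2-fold. With 1 library per group there is no test between conditions. Python 3.11.15, pandas 2.3.3 and scipy 1.17.1 were used, and the steps were tested on simulated data. Locations of host genes came from GENCODE on GRCh38.

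The members and the lists were chosen with earlier results of these data known. The miRNAs named were the members, the 3 names above and below each abundant arm, the 3 most alike, those with a shared seed, the 5 other hairpins of the 84 with the highest mean signal and up to 8 members of each list by level. Outside this rule, miR-4453, and the further members of the carcinoma list, were named after their values were seen. A further list that was planned is not reported here. Alternatives were other scalings, a pseudocount of 5, other filters, RefSeq mature lengths and summed arms.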

Additional observations from a re-analysis of the deposited data

How the results depend on the processing

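With 1 library per group, no replicate could be left out, and no value here carries the spread between cultures. No paired analysis was possible because each group has 1 library. RPKM as deposited changed the results most, since it includes the smaller miRNA part of the reads in the sphere library (12.1%, against 58.4% in the parental library). It gave log2 folds of -1.81 for miR-21-5p, -3.17 for miR-21-3p, -1.62 for miR-22-3p and -0.48 for miR-22-5p, so that all but miR-21-3p changed sign, and miR-22-5p lost its 2-fold difference. It gave 17 miRNAs higher and 214 lower in place of 62 and 51, and a median of -1.97 for the carcinoma list. The other scalings moved all log2 folds together. In the order miR-21-5p, miR-21-3p and miR-22-3p, the trimmed mean of M values gave 0.27, -1.10 and 0.45, and the median of ratios 0.25, -1.11 and 0.44. Scaling to the upper quartile gave 0.52, -0.84 and 0.71, to the total without the 4 members 0.61, -0.76 and 0.79, and to the total less the 5 most abundant names of either library 0.36, -0.999 and 0.55. The carcinoma list then had medians of 0.10 (trimmed mean), 0.085 (median of ratios), 0.44 (without the members) and 0.20 (without the most abundant). Summed arms gave 0.39 for miR-21, at 26.8% of the miRNA total in spheres and 20.5% in parental cells. Without a filter there were 193 higher and 180 lower, and with a minimum of 100 there were 23 and 18, by the number of names left (972 and 129 in place of 269). Counting only intervals wholly beyond 2-fold left 45 higher and 17 lower. A pseudocount of 5 gave a log2 arm ratio of 10.49 for miR-22 in parental cells. The difference of miR-22 between the libraries was then -0.74 in place of -1.09, and so no longer 2-fold. The length alternative could not be run for the arm ratio of miR-21, for want of a sequence of one arm. In all, 45 of the 80 alternative values lay within the counting interval, for counts within 1.5 times, or for medians within the median half-width of the counting intervals behind them.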
